A study of Mus musculus with 192 samples.

Results

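The 45 genes described here encode the machinery of DNA replication and cell division. They were taken by name from a fixed list out of 54752 genes in the table, and all 45 were found. The list was chosen with earlier results of these data known. By role, 25 act in mitosis, 11 in the licensing and opening of replication origins and at the replication fork, 3 in the synthesis of deoxynucleotides, 4 are transcription factors and 2 are E-type cyclins. RNA sequencing was performed on 9 tissues of male C57BL/6J mice, 12 weeks old according to the labels, that were flown to the International Space Station and returned to Earth or housed in the same kind of cages on the ground. The paper gives about this age for the launch, and the flight mice were dissected after about a month on the station. Ground control wild-type mice (GC_WT), flight wild-type mice (FL_WT), ground control Nrf2 knockout mice (GC_KO) and flight Nrf2 knockout mice (FL_KO) formed the 4 groups, and Nrf2-KO mice carry the germline Nfe2l2 tm1Ymk allele. The comparisons ask whether flight changed these genes and whether the loss of Nrf2, a transcription factor that induces detoxifying and antioxidant enzymes, changed them or their response. Each group had 6 mice per tissue, or 3 in kidney (Kid) and mandible bone (MdB). One flight knockout mouse, FL04, bled in the intestine during the return and was left out, as the study did. The FL_KO group therefore held 5 mice, and 2 in MdB. No mice were pooled, and each sample is 1 tissue of 1 mouse. The ground mice were kept at another site and later in the year, and flight mice also went through the return. In all tissues but TpB (temporal bone), library numbers of flight and ground mice also formed separate runs. In TpB they alternated in the library set with lower numbers and formed separate runs in the set with higher numbers. Flight therefore cannot be told apart from site, date, return and, outside the alternating set of TpB, library order.

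Cells copy their genome in S phase and part the copies in mitosis. Licensing factors such as Cdc6 and Cdt1 load the Mcm2 to Mcm7 helicase onto origins, and E2F transcription factors induce these genes as cells enter S phase. Mitotic genes such as Cdk1, the kinase that starts mitosis, and its partners cyclin B1 and B2 are transcribed later, in G2 and M phase, through the CHR and CCAAT elements of their promoters, which the DREAM, MuvB, Foxm1 and NF-Y complexes bind. Dividing cells are abundant among the immature thymocytes of the thymus and the blood precursors of bone marrow and spleen, and scarce in adult kidney, liver, fat and brain. RNA levels are given as TPM, in which counts are scaled by gene length and library, and differences as log2 fold changes of counts scaled between libraries by TMM, with the standard error (SE). Genes were called at an adjusted p under 0.05 in edgeR's quasi-likelihood test, adjusted by Benjamini-Hochberg over all genes tested in a tissue.

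Promoters of mitotic and replication genes in this list carried different letters. Promoter windows from 250 bases before to 50 after the start of the gene were available from RefSeq (GRCm38.p6) for 37 of the 45 genes, all of which are counted here. The windows follow RefSeq's gene starts, which lay within 100 bases of the start of the same gene in GENCODE for 31 of the 37, and the bases just after the start were found in a GENCODE transcript of the gene for 30 of them. The CHR element, searched as TTTGAA or TTCGAA on both strands, lay in the window of 17 of 21 mitotic genes (81%) and 3 of 9 licensing and fork genes (33.3%), beside 19.4% of all 27025 windows. Within 40 bases of the start it was found in 15 of the 21 and 1 of the 9, beside 4.53% of all windows. An E2F element, searched as TTCCCGC or TTCGCGC or TTGCCGC or TTGGCGC on both strands, was found in 3 of 21 mitotic genes (14.3%) and 6 of 9 licensing and fork genes (66.7%), beside 9.69% of all windows. CCAAT did not part them, with 18 of 21 (85.7%) and 7 of 9 (77.8%) beside 37.9% of all windows. The core of the Nrf2 binding element, TGACNNNGC on both strands, was found in 6 of 37 windows (16.2%) beside 12.5% of all. Such matches are letters in a window and not shown binding sites.

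The promoters of 5 mitotic genes below are shown for their CHR and CCAAT letters, in capitals, on either strand, from 180 bases before to 20 after the gene start in RefSeq. Prc1 lies at chr7:80294271-80294470 (plus strand), Cdc20 at chr4:118437324-118437523 (minus), Cdk1 at chr10:69352893-69353092 (minus), Kif11 at chr19:37376202-37376401 (plus) and Cenpf at chr1:189688067-189688266 (minus).
Prc1: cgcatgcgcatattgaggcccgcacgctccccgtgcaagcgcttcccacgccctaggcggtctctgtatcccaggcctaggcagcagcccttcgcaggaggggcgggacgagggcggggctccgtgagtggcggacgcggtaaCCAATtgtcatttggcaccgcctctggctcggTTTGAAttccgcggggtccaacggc
Cdc20: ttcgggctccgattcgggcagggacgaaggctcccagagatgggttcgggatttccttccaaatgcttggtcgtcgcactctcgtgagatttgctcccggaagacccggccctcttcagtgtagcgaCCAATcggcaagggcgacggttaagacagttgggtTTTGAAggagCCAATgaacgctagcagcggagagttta
Cdk1: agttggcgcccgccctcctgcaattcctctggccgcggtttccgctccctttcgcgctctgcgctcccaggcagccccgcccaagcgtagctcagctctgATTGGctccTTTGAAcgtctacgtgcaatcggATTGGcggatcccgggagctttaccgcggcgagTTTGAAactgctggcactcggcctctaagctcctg
Kif11: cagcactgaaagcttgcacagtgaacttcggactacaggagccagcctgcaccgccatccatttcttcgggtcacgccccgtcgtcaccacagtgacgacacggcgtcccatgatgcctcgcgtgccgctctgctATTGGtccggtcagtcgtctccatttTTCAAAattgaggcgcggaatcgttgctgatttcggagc
Cenpf: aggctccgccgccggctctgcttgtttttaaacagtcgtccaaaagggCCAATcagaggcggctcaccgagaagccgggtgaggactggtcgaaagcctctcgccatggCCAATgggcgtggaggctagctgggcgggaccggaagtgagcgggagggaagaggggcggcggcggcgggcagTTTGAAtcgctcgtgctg

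The promoters of 3 replication genes are shown for their E2F letters, which alone are in capitals here, and touching matches form 1 run. The RefSeq start of Cdc6 lies 350 bases downstream of its start in GENCODE, so that its window is inside the GENCODE gene, while those of Mcm5 and Mcm6 lie 60 and 41 bases upstream. Mcm5 lies at chr8:75109329-75109528 (plus strand), Mcm6 at chr1:128359686-128359885 (minus) and Cdc6 at chr11:98907971-98908170 (plus).
Mcm5: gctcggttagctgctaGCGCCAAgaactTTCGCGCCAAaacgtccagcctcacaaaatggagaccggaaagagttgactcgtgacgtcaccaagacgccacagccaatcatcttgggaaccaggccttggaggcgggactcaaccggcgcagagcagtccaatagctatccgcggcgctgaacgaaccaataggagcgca
Mcm6: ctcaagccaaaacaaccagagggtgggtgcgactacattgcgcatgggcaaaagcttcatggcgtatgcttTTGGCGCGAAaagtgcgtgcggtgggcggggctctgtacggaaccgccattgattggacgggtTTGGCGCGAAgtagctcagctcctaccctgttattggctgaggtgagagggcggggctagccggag
Cdc6: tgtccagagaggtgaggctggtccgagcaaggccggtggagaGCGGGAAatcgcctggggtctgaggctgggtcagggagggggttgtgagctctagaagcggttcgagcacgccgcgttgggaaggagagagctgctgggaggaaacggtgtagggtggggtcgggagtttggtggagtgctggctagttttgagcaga

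Library totals ranged from 8.01 to 16.3 M expected counts. All 5 defining markers of each tissue were above 1 TPM in every mouse used, and Nfe2l2 RNA in Nrf2-KO tissues was between 28.2% and 81.9% of the WT mean without overlap of the genotypes in any of the 9 tissues. The median gene's TPM was shifted between flight and ground in thymus (Thy) by 0.18 in WT and 0.16 in KO mice on the log2 scale, so that the TMM-scaled fold changes used here lie below those of TPM.

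The summed level of the 45 genes differed greatly between tissues. Its median over mice was 2029 TPM in Thy, 1113 TPM in temporal bone (TpB), which holds marrow, and 1021 TPM in spleen (Spl), and then 300 TPM in MdB, 164 TPM in epididymal white fat (eWAT), 138 TPM in cerebrum (Cbr), 85.3 TPM in Kid, 65.4 TPM in liver (Liv) and 42.9 TPM in interscapular brown fat (iBAT). The order of neighbours was not clear in every case, since single mice ranged from 540 to 2348 TPM in TpB and from 810 to 1456 TPM in Spl, and from 77.6 to 92.2 TPM in Kid and 56.6 to 86 TPM in Liv. Thy held the highest median of 40 of the 45 genes, TpB of 4 and Spl of 1. Pcna, the sliding clamp of the replication fork, was the highest of the 45 in each tissue. All 45 genes had a median of at least 1 TPM in Thy, Spl, TpB and MdB, against 36 in eWAT, 25 in Cbr, 18 in Kid, 16 in Liv and 7 in iBAT. Thy RNA was depleted of ribosomal RNA whereas the other tissues were selected for poly(A), so levels in Thy and elsewhere were not made the same way. All 45 passed the filter on low counts in Thy, Spl, TpB, MdB and eWAT, and 37 did in Kid, 36 in Cbr and 27 in both Liv and iBAT. The filter left out 8, 9, 18 and 18 genes there, which were not tested.

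**Figure D1:**
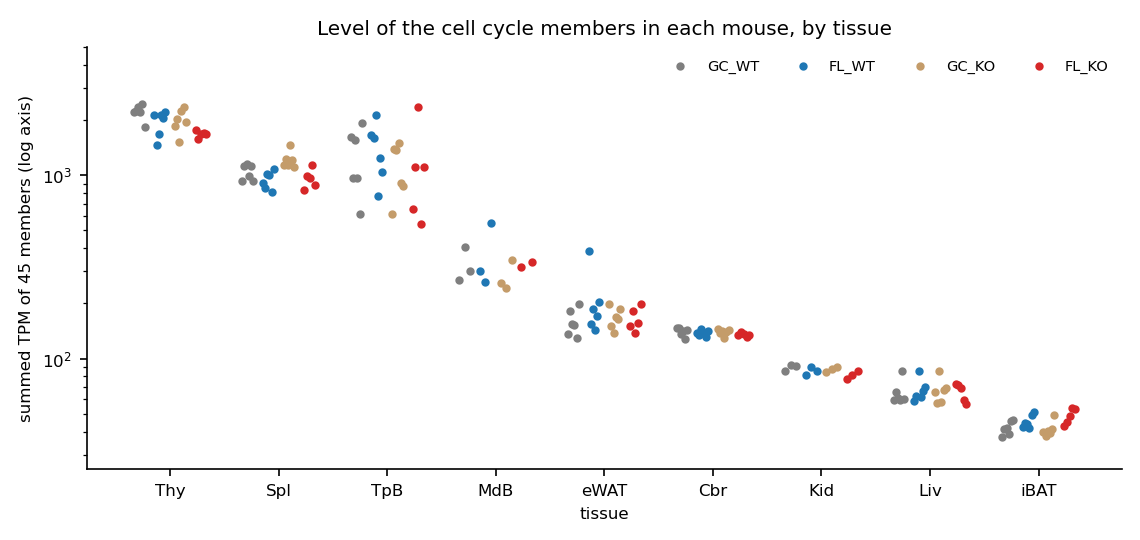
Summed TPM of the 45 genes in each mouse (points, log axis) by tissue and group. Medians run from 42.9 TPM in iBAT to 2029 TPM in Thy, and the mice of TpB are spread from 540 to 2348 TPM.

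In Thy, the mitotic genes were lower in flight mice of both genotypes, and most replication genes were not called. Between FL_WT and GC_WT, 30 of the 45 genes were called lower and 0 higher, with a median log2 fold change of -0.51, whereas 11% of all 16307 genes tested were called lower and the median of all genes was 0.02. Between FL_KO and GC_KO, 34 were called lower and 0 higher with a median of -0.55, beside 18.9% of all genes and a median of -0.01. These contrasts share no mice, and 30 genes were called in both, 4 in KO mice alone by the threshold and 11 in neither. Averaged over both genotypes, in the same mice, 35 were called lower, beside 23.6% of all genes. DESeq2 called 32 and 34 lower. With limma on log2(TPM + 1), which carries the TPM shift, 23 and 22 of 44 genes tested were called lower. In bulk tissue, fewer cells of a type and less RNA per cell cannot be told apart.

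All 25 mitotic genes were lower in both genotypes, with medians of -0.57 in WT and -0.64 in KO mice. Every group of the mitotic machinery took part. These were the 10 cyclins and kinases (-0.55 and -0.66), the 7 spindle and cytokinesis genes (-0.58 and -0.62), the 4 centromere and passenger genes (-0.58 and -0.63), the activator and the E2 enzyme of the anaphase-promoting complex (-0.67 and -0.86), and the chromosome genes Mki67 and Top2a. Of the 11 licensing and fork genes, 1 was called lower in WT mice (Cdc45, median of the 11 -0.10) and 3 in KO mice (Cdc45, Mcm7 and Pcna, median -0.18). The 3 nucleotide genes lay between, with 2 and 3 called and medians of -0.26 and -0.45. Of the 4 transcription factors, E2f8 and Foxm1 were lower in both genotypes. Ccne2 was called in KO mice, and Ccne1, Cdc6, Cdt1, E2f1, Gins2, Mcm2 to Mcm6 and Mybl2 in neither. That the mitotic and licensing genes differ in response was not tested as such. Leaving out GC_KO mouse 04 kept 25 mitotic genes called in the averaged contrast and raised the licensing and fork genes called to 7.

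**Figure D2:**
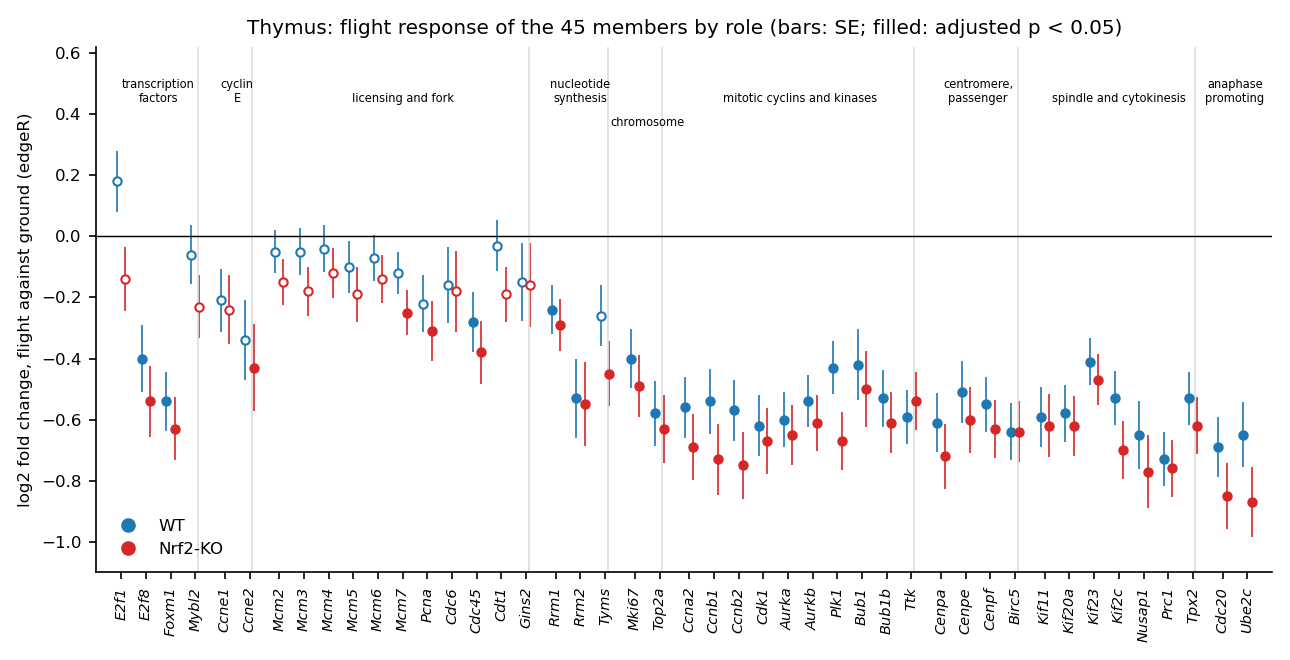
Log2 fold change of each of the 45 genes in Thy by role, for FL_WT against GC_WT and FL_KO against GC_KO. The 25 mitotic genes lie lower, with medians of -0.57 and -0.64, than the 11 licensing and fork genes, with medians of -0.10 and -0.18.

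Prc1, which bundles microtubules in the spindle midzone, had the smallest adjusted p. Its level ranged from 36.7 to 50 TPM in GC_WT mice (median 45.9), from 24.6 to 36.5 TPM in FL_WT mice (median 34.5) and from 30.6 to 43.7 TPM in GC_KO mice (median 40.9). The 5 FL_KO mice had 30.1, 24.7, 27.4, 27.2 and 28.4 TPM. Each flight mouse was below each ground mouse of its genotype. The log2 fold change was -0.73 (SE 0.0884, adjusted p = 8.92e-06, edgeR) in WT and -0.76 (SE 0.0946, adjusted p = 2.33e-06, edgeR) in KO mice.

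Cdc20 activates the anaphase-promoting complex, which ends metaphase. Its level ranged from 51.1 to 68.8 TPM in GC_WT mice (median 60.3), from 32.2 to 51.4 TPM in FL_WT mice (median 45.8) and from 37.1 to 66.3 TPM in GC_KO mice (median 51.7). The FL_KO mice had 35.8, 29.1, 36.7, 36.8 and 33.2 TPM. The lowest GC_WT mouse was just below the highest 2 FL_WT mice, and the KO groups were apart. It fell by 0.69 (SE 0.0992, adjusted p = 3.81e-05) and by 0.85 (SE 0.107, adjusted p = 2.56e-06) on the log2 scale in edgeR. Ube2c, the E2 enzyme of the same complex, had a median of 89.5 TPM in GC_WT (80.2 to 108), 71.4 TPM in FL_WT (45.4 to 79.2) and 81 TPM in GC_KO (59.5 to 102), and 57.4, 48.5, 56.3, 56 and 52.1 TPM in the FL_KO mice. Flight and ground mice of each genotype were apart. Its log2 fold change was -0.65 (SE 0.106, adjusted p = 0.000111) in WT and -0.87 (SE 0.114, adjusted p = 4.21e-06) in KO mice in edgeR.

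Birc5, or survivin, a member of the chromosomal passenger complex, had medians of 78.8 TPM (75.2 to 95.6) in GC_WT, 65.1 TPM (46.7 to 74.3) in FL_WT and 69.5 TPM (63.7 to 84.2) in GC_KO mice, and 56.3, 49.5, 56.9, 59 and 57.1 TPM in FL_KO mice. Flight mice were again all below the ground mice of their genotype. Its log2 fold change was -0.64 (SE 0.0932, adjusted p = 4.31e-05) in WT and -0.64 (SE 0.0996, adjusted p = 2.58e-05) in KO mice in edgeR. Its partner kinase Aurkb fell by 0.54 and 0.61 on the log2 scale. The spindle kinase Aurka had a median of 34.6 TPM (27.2 to 35.5) in GC_WT and 27.3 TPM (18.5 to 29.2) in FL_WT mice and fell by 0.60 (adjusted p = 5.27e-05, edgeR). The checkpoint kinase Ttk fell by 0.59 in WT and 0.54 in KO mice. Among the genes with the smallest adjusted p in KO mice were also Kif2c, a kinesin that shortens microtubules (-0.70), Plk1, a kinase that drives mitosis (-0.67), and Ccnb2 (-0.75), which had log2 fold changes of -0.53, -0.43 and -0.57 in WT mice.

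Cdk1 ranged from 50.4 to 63 TPM in GC_WT (median 57.5), from 32.8 to 52.5 TPM in FL_WT (median 45.5) and from 36.8 to 56.2 TPM in GC_KO mice (median 46.7), and was 36.3, 34.3, 36.8, 36 and 33.1 TPM in FL_KO mice. The WT groups overlapped by the highest FL_WT mouse, and the KO groups met at 36.8 TPM. Its log2 fold change was -0.62 (SE 0.0992, adjusted p = 9.4e-05) in WT and -0.67 (SE 0.107, adjusted p = 3.59e-05) in KO mice in edgeR. Ccnb1, which encodes cyclin B1, fell by 0.54 and 0.73. Top2a, the topoisomerase that untangles sister chromatids, ranged from 151 to 208 TPM (median 192) in GC_WT and from 105 to 175 TPM (median 157) in FL_WT mice and fell by 0.58 (SE 0.105, adjusted p = 0.000378, edgeR). Mki67, a coat of mitotic chromosomes and the usual marker of cycling cells, had the smaller changes of -0.40 (SE 0.0967, adjusted p = 0.00419) and -0.49 (SE 0.102, adjusted p = 0.000568) in edgeR. Its levels overlapped, with 114 to 170 TPM in GC_WT and 98.2 to 148 TPM in FL_WT mice.

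The replication genes moved less. Mcm5, a subunit of the helicase, ranged from 59.1 to 77.4 TPM in GC_WT (median 71.9), from 56.6 to 87.4 TPM in FL_WT (median 76.2) and from 45.3 to 74.5 TPM in GC_KO mice (median 65.2), and was 70.4, 65.1, 65.1, 63.9 and 62.8 TPM in FL_KO mice. Ground and flight mice overlapped in both genotypes. Its log2 fold change was -0.10 (SE 0.0854, adjusted p = 0.439) and -0.19 (SE 0.0903, adjusted p = 0.0997) in edgeR, and 0.12 and 0.08 with limma on log2(TPM + 1), against a shift of 0.18 and 0.16 for the median gene. Pcna ranged from 155 to 204 TPM in GC_WT (median 186), from 142 to 214 TPM in FL_WT (median 191) and from 105 to 192 TPM in GC_KO mice (median 168), and was 156, 152, 152, 166 and 144 TPM in FL_KO mice. These groups overlapped as well, and its log2 fold change was -0.22 (SE 0.094, adjusted p = 0.0869) in WT and -0.31 (SE 0.0995, adjusted p = 0.017) in KO mice in edgeR, a call that was lost without FL_KO mouse 01. Mcm2 had -0.05 and -0.15, neither called. Cdc45, which joins the helicase at the fork, was called in both genotypes at -0.28 and -0.38. Rrm2, the regulated subunit of ribonucleotide reductase, changed as much as many mitotic genes (-0.53 and -0.55). Foxm1, the activator of G2 and M genes, had -0.54 and -0.63. E2f1 had an estimate above 0 in WT mice (0.18, adjusted p = 0.19, edgeR) and below 0 in KO mice (-0.14, adjusted p = 0.3, edgeR).

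**Figure D3:**
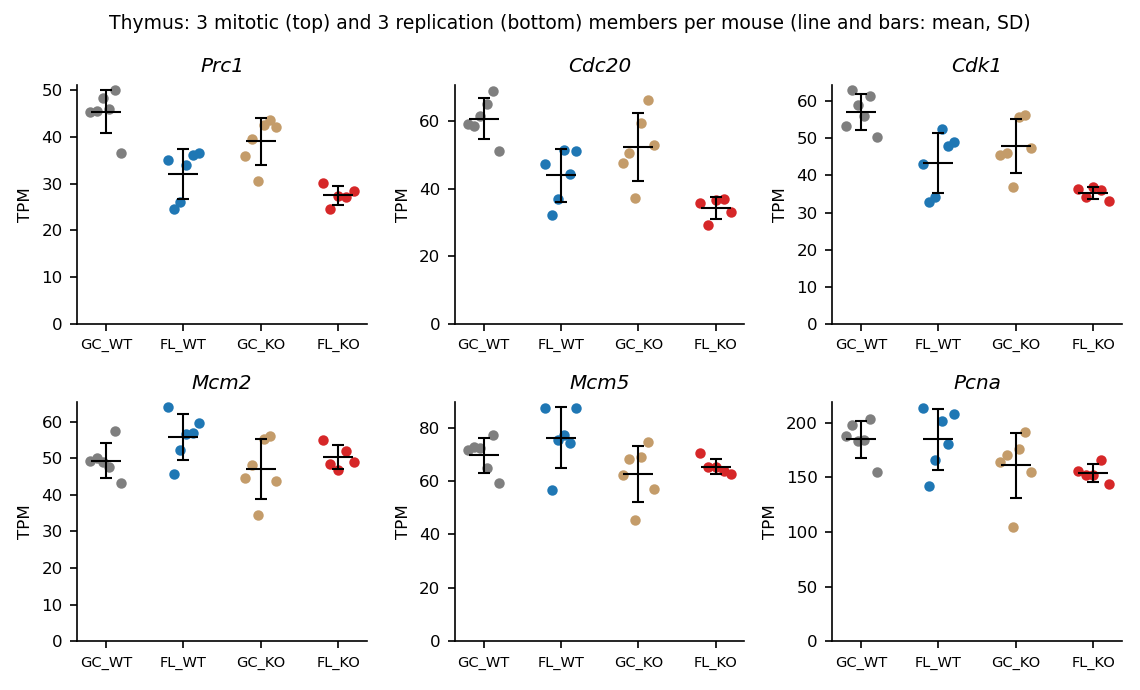
TPM of 3 mitotic genes (Prc1, Cdc20, Cdk1) and 3 replication genes (Mcm2, Mcm5, Pcna) in each mouse of Thy by group, with mean and SD. Prc1 is at 24.6 to 36.5 TPM in FL_WT and 36.7 to 50 TPM in GC_WT mice, whereas Mcm5 overlaps at 56.6 to 87.4 and 59.1 to 77.4 TPM.

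A ratio within each mouse does not depend on the scaling between libraries. The summed TPM of the 25 mitotic genes was 2.04 to 2.39 times that of the 11 licensing and fork genes in GC_WT mice and 1.48 to 1.77 times in FL_WT mice. In KO mice it was 2.02 to 2.35 times on the ground and 1.5 to 1.67 times in flight. Every flight mouse was below every ground mouse, in both genotypes. The mean mitotic sum was 1365 TPM in GC_WT, 1075 TPM in FL_WT, 1214 TPM in GC_KO and 914 TPM in FL_KO mice, while the licensing and fork sum was 621 ± 58.5, 664 ± 89.6, 569 ± 95.2 (SD, n = 6 each) and 580 ± 26.1 TPM (SD, n = 5). On the TPM scale of single genes, every flight mouse was below every ground mouse for 3 of 45 genes in WT mice, beside 0.521% of all genes, and 9 in KO mice, beside 0.65%, of which 3 and 8 were mitotic and 0 and 0 licensing and fork genes.

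Genes outside the list stood in the same order by role. They too were chosen with earlier results of these data known and were measured in the same mice, so they are not an independent test. Of 58 other mitosis genes, 52 were called lower in WT and 55 in KO mice (medians -0.49 and -0.57), beside 11% and 18.9% of all genes. Kif18b, a kinesin of the spindle, was at -0.67 and -0.83. Of 43 other replication genes, 11 and 18 were called lower (medians -0.11 and -0.19), also above these shares of all genes. Gmnn, the inhibitor of Cdt1, was among them at -0.45 in KO mice. The summed TPM of the mitosis genes over that of the replication genes was 1.61 to 1.77 in GC_WT and 1.27 to 1.4 in FL_WT mice. It was 1.61 to 1.75 in GC_KO and 1.26 to 1.33 in FL_KO mice, again without overlap. Of 6 inhibitors of cyclin-dependent kinases tested, Cdkn2d (-0.70 and -0.78), Cdkn1b (-0.37 and -0.42) and Cdkn2c (-0.75 and -0.88) fell in both genotypes. The other 3, Cdkn1c (0.71), Cdkn2b (0.84) and the p53 target Cdkn1a (0.52), rose in KO mice and were not called in WT mice, and they are named here after their values were seen. Of 21 regulators of the G1 phase, 3 rose and 6 fell in WT mice, and 4 rose and 11 fell in KO mice, among them E2f2 (-0.68 and -0.77) and Ccnd2, which encodes cyclin D2 (0.83 in KO mice).

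By promoter letters, 19 of 21 genes with a CHR element were called lower in WT and 20 of 21 in KO Thy (medians -0.55 and -0.63), and 6 and 8 of 16 without it (medians -0.21 and -0.27). Mcm2 and Mcm7 carried the letters and were not called in WT mice, and Mcm2 in neither genotype. The mitotic genes Ccnb1, Cenpe, Birc5 and Nusap1 lacked them in this window and were called in both. With an E2F element, 6 and 7 of 12 were called (medians -0.20 and -0.27), and without it 19 and 21 of 25. Since role and letters go together in this list, these counts cannot be told apart from those by role.

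Markers of cell types also changed in flight in Thy, some lower and some higher. Of 10 immature thymocyte markers, such as Rag1 and Ptcra, 8 were called lower in each genotype, with a summed TPM of 3299 to 3890 in GC_WT, 2840 to 3487 in FL_WT, 2522 to 3780 in GC_KO and 2393 to 2655 in FL_KO mice. Macrophage markers were called higher for 4 and 8 of 8 (170 to 226, 225 to 454, 122 to 200 and 235 to 324 TPM), B cell markers for 3 and 7 of 8 (20.7 to 26.9, 28.6 to 36.9, 15.7 to 28.2 and 30.6 to 39.7 TPM), thymic epithelium markers for 3 and 4 of 8 (736 to 954, 1001 to 1404, 493 to 869 and 865 to 1067 TPM) and endothelium markers for 2 and 5 of 6. Mature T cell markers were called higher for 2 and 4 and lower for 2 and 2 of 9. Their part in the fall of the mitotic genes was not tested.

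In Spl, 14 of the 45 genes were lower in flight averaged over both genotypes, beside 4.74% of all genes, and 11 of them were mitotic. These were Cenpf, Nusap1, Cenpe, Bub1, Prc1, Cenpa, Birc5, Aurka, Mki67, Ube2c and Kif23, together with E2f8, Ccne2 and Cdc45. The median was -0.32 over the mitotic genes and -0.09 over the licensing and fork genes, of which 1 was called. The ratio of mitotic to licensing and fork sums overlapped between ground and flight mice. It was 0.8 to 1.09 in GC_WT and 0.708 to 1.01 in FL_WT mice, and 0.959 to 1.16 in GC_KO and 0.692 to 1.03 in FL_KO mice. The ratio for mitosis and replication genes outside the list overlapped as well. In single genotypes 0 genes were called by edgeR. Between FL_WT and GC_WT, 7 were lower at an unadjusted p under 0.05, beside 8.86% of all genes, with a median of -0.18 over the 45. By adjusted p 1.11% of all genes were called lower there, and DESeq2 called 0 of the 45. Between FL_KO and GC_KO, 31 were lower at an unadjusted p under 0.05, beside 6.91% of all genes (median -0.37, beside 0.513% called lower), and DESeq2 called 3. The difference between genotypes was not called for any.

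The kinetochore protein Cenpf had the smallest adjusted p. Its level ranged from 2.58 to 4.31 TPM in GC_WT (median 3.27), from 1.66 to 3.77 TPM in FL_WT (median 2.34) and from 3.16 to 5.01 TPM in GC_KO mice (median 3.58), and was 1.74, 2.55, 2.65, 3.09 and 2.02 TPM in FL_KO mice. The WT groups overlapped and the KO groups were just apart. The averaged log2 fold change was -0.56 (SE 0.134, adjusted p = 0.0127, edgeR). Nusap1, which binds spindle microtubules, ranged from 13.4 to 16.5 TPM in GC_WT, from 9.91 to 15.9 TPM in FL_WT and from 16.3 to 21.8 TPM in GC_KO mice, and was 10.2, 13.9, 13.3, 15.5 and 12.8 TPM in FL_KO mice. The WT groups overlapped and the KO groups were apart, and its averaged log2 fold change was -0.36 (SE 0.0874, adjusted p = 0.0148, edgeR). Mki67 had means of 51.5 TPM in GC_WT, 36.3 TPM in FL_WT, 59.6 TPM in GC_KO and 38.1 TPM in FL_KO mice, with overlap in both genotypes, and an averaged log2 fold change of -0.54 (SE 0.163, adjusted p = 0.0408, edgeR). Mcm5 had -0.09 (adjusted p = 0.43, edgeR). In KO mice alone, Cdc45 had the smallest adjusted p, at -0.45 (SE 0.122, adjusted p = 0.101, edgeR). It ranged from 11.3 to 13.9 TPM in GC_KO mice and from 7.81 to 9.52 TPM in FL_KO mice, without overlap. Such separation was seen for 10 of the 45 genes in KO mice, beside 1.38% of all genes, and for 0 in WT mice, beside 0.594%.

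The Spl count depended on single mice. It was 3 without FL_KO mouse 01, 8 without 02, 6 without 12 and 24 without 11, 4 without GC_KO mouse 09, 7 without mice GC04 and GC05, 6 with the mouse number as a block, 9 with no filter, 21 with DESeq2, and 22 with limma or with FL04 included. Erythroid markers moved with it, with 8 and 11 of 12 called lower in WT and KO mice (medians -2.83 and -3.44) and a summed TPM of 73.5 to 391 in GC_WT, 31 to 60.4 in FL_WT, 117 to 536 in GC_KO and 38.7 to 52.8 in FL_KO mice. Neutrophil precursor markers summed to 27.6 to 444, 17.8 to 38.7, 105 to 464 and 73.5 to 135 TPM, with 4 of 8 tested called lower in the averaged contrast, and B cell and mature T cell markers had 0 called. Their part in the result was not tested. Of the other mitosis genes 10 of 58 and of the other replication genes 0 of 43 were called lower in the averaged contrast, beside 4.74% of all genes.

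In Kid, 7 of 37 genes tested were lower in flight averaged over both genotypes, beside 0.906% of all genes. Their levels were low, with medians from 0.11 TPM for Cenpf to 1.94 TPM for E2f1. Of the 25 mitotic genes, 5 had a median of at least 1 TPM in Kid. Mki67 was 0.81, 0.9 and 1 TPM in GC_WT, 0.47, 0.34 and 0.37 TPM in FL_WT, 0.86, 0.72 and 0.95 TPM in GC_KO and 0.25, 0.52 and 0.22 TPM in FL_KO mice. The flight mice were all lower, and the averaged log2 fold change was -1.34 (SE 0.193, adjusted p = 0.00636, edgeR). Kif20a, a kinesin of cytokinesis, was 0.76, 0.87 and 0.97 TPM in GC_WT, 0.34, 0.41 and 0.39 TPM in FL_WT, 0.75, 0.88 and 0.64 TPM in GC_KO and 0.42, 0.34 and 0.36 TPM in FL_KO mice. These were again apart, with an averaged log2 fold change of -1.18 (SE 0.171, adjusted p = 0.00636, edgeR). Rrm2 was 2.15, 1.92 and 1.89 TPM in GC_WT, 1.12, 1.06 and 0.93 TPM in FL_WT, 2.58, 1.94 and 2.2 TPM in GC_KO and 1.35, 1.52 and 1.07 TPM in FL_KO mice. Its averaged log2 fold change was -0.91 (SE 0.148, adjusted p = 0.0132, edgeR), without overlap in either genotype. Prc1 (-1.22), Top2a (-1.30), E2f1 (-0.61) and Cenpf (-1.33) were also called. The median was -0.95 over 20 mitotic genes tested, of which 5 were called, and -0.08 over the 17 others, of which Rrm2 and E2f1 were called. Pcna, at means of 23.4, 25.7, 22.7 and 24.6 TPM in the 4 groups, stayed uncalled.

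Within genotypes, Prc1 alone was called in WT Kid, at 0.65, 0.64 and 1.02 TPM in GC_WT and 0.24, 0.25 and 0.18 TPM in FL_WT mice (log2 fold change -1.83, SE 0.305, adjusted p = 0.0422, edgeR), beside 0.0198% of all genes called lower. The call was lost when any 1 of the 12 mice was left out. At an unadjusted p under 0.05, 15 were lower in WT mice, beside 3.49% of all genes. In KO mice 0 were called (1 without FL_KO mouse 02 and 2 without FL_KO mouse 11), beside 0.0926% of all genes, and 16 were lower at an unadjusted p under 0.05, beside 6.56%. DESeq2 called 2 in each. E2f1 had the smallest adjusted p there, at 2.04, 2.31 and 2.04 TPM in GC_KO and 1.16, 1.02 and 1.36 TPM in FL_KO mice (log2 fold change -0.93, adjusted p = 0.0815, edgeR). On the TPM scale, every flight mouse was below every ground mouse for 14 of the 37 genes in WT mice, beside 3.29% of all genes, and for 13 in KO mice, beside 3.59%. Every flight mouse was above for 3 and 2 of the 37, beside 13.5% and 13.1% of all genes. The ratio of mitotic to licensing and fork sums was 0.318 to 0.416 on the ground and 0.204 to 0.303 in flight, but the ratio for the genes outside the list overlapped, at 0.934 to 1.0 and 0.865 to 1.02. The averaged count was 5 with DESeq2, 3 without GC_WT mouse 06, 4 without FL_WT mouse 08 (E2f1 lost its call on leaving out 9 of the mice in turn) and 0 with the mouse number as a block, and limma, which tested 4 of the genes, called 0. Macrophage markers had 0 of 8 called in the averaged contrast, while erythroid markers had 2 of 6 tested called lower, summed to 32.1 to 38.4 TPM on the ground and 23.3 to 30 TPM in flight, and their part was not tested.

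**Figure D4:**
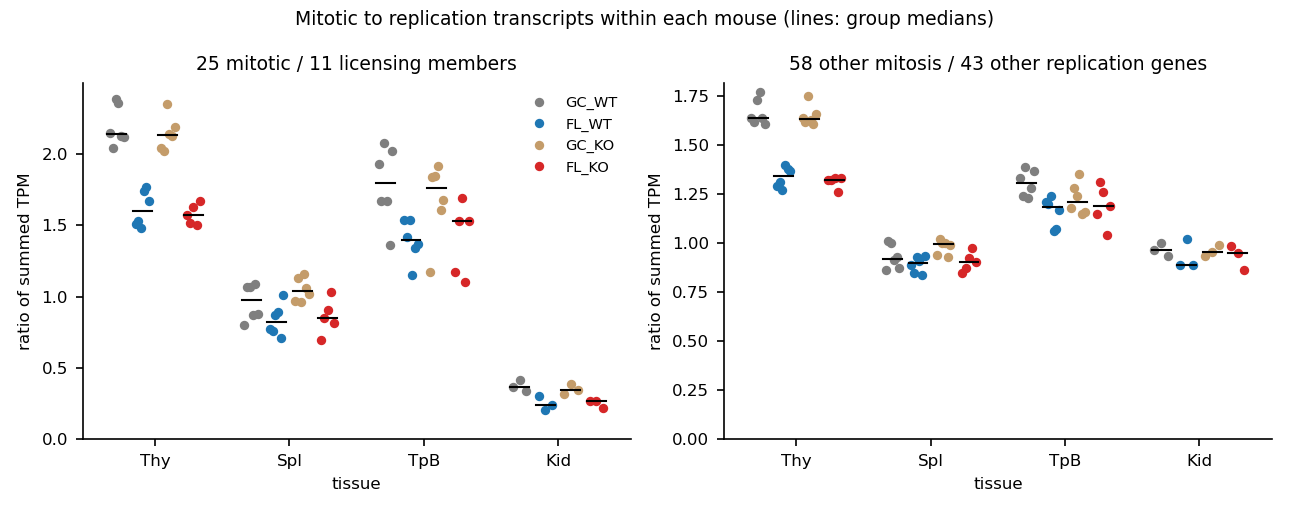
Summed TPM of the 25 mitotic genes over that of the 11 licensing and fork genes, and the same for mitosis and replication genes outside the list, in each mouse of Thy, Spl, TpB and Kid, with the median as a line. In Thy the flight mice, at 1.48 to 1.77, are all below the ground mice, at 2.02 to 2.39.

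In bone, no gene of the 45 was called in flight, nor was any gene of the table, so that the background was 0% in TpB and 0% in MdB in each flight contrast. At an unadjusted p under 0.05, 0 of the 45 were found in TpB in WT, KO or averaged contrasts, beside 3.71%, 2.67% and 4.95% of all genes, and DESeq2 called 0. The medians in TpB were -0.07 in WT, 0.05 in KO and 0.02 averaged. The mice were widely spread, with Mki67 at 34.2 to 120 TPM in GC_WT (median 82.8), 33.9 to 107 TPM in FL_WT (median 60.4) and 25.5 to 88.7 TPM in GC_KO mice (median 67), and 27.5, 50.5, 130, 21.6 and 51.7 TPM in FL_KO mice. The groups overlapped throughout. FL_KO mouse 09 had the highest sum of the 45 genes, 2348 TPM, together with 2098 TPM of erythroid and 7270 TPM of neutrophil precursor markers, and the part of these cells was not tested. The mitotic to licensing ratio in TpB had medians of 1.8 in GC_WT (1.36 to 2.08) and 1.4 in FL_WT mice (1.15 to 1.54), and of 1.76 in GC_KO (1.17 to 1.92) and 1.53 in FL_KO mice (1.1 to 1.69). Ground and flight mice overlapped in both genotypes. In MdB the medians were 0.09 in WT, 0.21 in KO and 0.17 averaged, and the genes at an unadjusted p under 0.05 numbered 0, 1 and 1, all higher, beside 8.68%, 3.48% and 6.64% of all genes. No gene was called with DESeq2, and the summed levels overlapped at 269 to 406, 263 to 547, 243 to 343 and 317 to 336 TPM.

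In Liv, 5 of 27 genes tested were lower in flight averaged over both genotypes, beside 5.83% of all genes. They were Top2a, Mki67 and the helicase genes Mcm5, Mcm6 and Mcm3, of which Mcm3 lost its call without GC_WT mouse 08 or any of FL_KO mice 01, 02, 11 and 12. Between FL_WT and GC_WT, Top2a and Mki67 were called lower, beside 1.91% of all genes. Top2a ranged from 0.13 to 0.53 TPM in GC_WT (median 0.34) and from 0.06 to 0.17 TPM in FL_WT mice (median 0.095), with overlap, and fell by 1.62 on the log2 scale (SE 0.331, adjusted p = 0.00979, edgeR). Mki67 ranged from 0.22 to 0.65 TPM (median 0.42) and from 0.08 to 0.35 TPM (median 0.16) and fell by 1.25 (SE 0.289, adjusted p = 0.0176, edgeR). Between FL_KO and GC_KO 0 were called, beside 2.02% of all genes, and 3 were lower at an unadjusted p under 0.05, beside 8.12%, with DESeq2 calling 1. Mcm6 had the smallest adjusted p there (-0.87, adjusted p = 0.0712, edgeR). Mcm5 ranged from 0.58 to 1.67 TPM in GC_WT, from 0.12 to 0.78 TPM in FL_WT and from 0.78 to 2.61 TPM in GC_KO mice, and was 0.76, 0.89, 1.32, 0.48 and 0.84 TPM in FL_KO mice. Its averaged log2 fold change was -1.02 (SE 0.236, adjusted p = 0.00596, edgeR), with overlap in both genotypes. DESeq2 called 3 lower and 1 higher in WT mice, and limma, which tested 3 of the genes, 1 in WT mice and 1 averaged. Macrophage markers were called lower for 5 and 1 of 8, at 82.2 to 158 TPM in GC_WT, 54.8 to 109 TPM in FL_WT, 104 to 168 TPM in GC_KO and 82.6 to 138 TPM in FL_KO mice, and their part was not tested.

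In eWAT, E2f1 rose and no other gene of the 45 was called in either genotype. It ranged from 6.61 to 10.1 TPM in GC_WT (median 7.9), from 8.29 to 19.1 TPM in FL_WT (median 13.9) and from 6.81 to 9.63 TPM in GC_KO mice (median 9.04), and was 13.4, 12.8, 9.51, 15.3 and 14.7 TPM in FL_KO mice. The lowest flight mouse lay within the ground range in each genotype, and the other flight mice above it. The log2 fold change was 0.65 in WT (SE 0.147, adjusted p = 0.00464), 0.60 in KO (SE 0.153, adjusted p = 0.0193) and 0.63 averaged (SE 0.106, adjusted p = 0.000191) in edgeR. Genes called higher made up 6.65%, 3.73% and 10.7% of all genes in these contrasts, against 2.22% of the 45 genes in each. The median of the 45 was 0.22 in WT and -0.06 in KO mice. The WT count was 4 with DESeq2, 2 with RLE factors and 3 without FL_KO mouse 02, the KO count was 0 without FL_KO mouse 11, and the averaged count was 2 without FL_KO mouse 01 or without FL_WT mouse 03. That last mouse had a summed level of 387 TPM, against 143 to 203 TPM in the other FL_WT mice, with 98.1 TPM of B cell and 1445 TPM of macrophage markers, the highest of its group, whose part was not tested.

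In iBAT, Rrm1, the large subunit of ribonucleotide reductase, and Cdc45 were lower in both genotypes. Of 27 genes tested, 2 (7.41%) were called lower between FL_WT and GC_WT, beside 10.3% of all genes. Between FL_KO and GC_KO, 2 (7.41%) were called lower, beside 16.6%. Averaged over both genotypes 5 (18.5%) were lower (Rrm1, Cdc45, Cdt1, Ccne1 and Mki67), beside 20.7% of all genes, and Mcm6 (3.7%) was higher, beside 23.3%. With 27 genes tested, the shares called lower in WT mice and averaged lay near those of all genes. Whether the list differs from genes at large was not tested. Rrm1 ranged from 4.91 to 7.33 TPM in GC_WT (median 6.14), from 5.1 to 6.08 TPM in FL_WT (median 5.4) and from 6.16 to 8.12 TPM in GC_KO mice (median 6.97), and was 4.25, 3.74, 6.96, 7.24 and 6.54 TPM in FL_KO mice, with overlap in both genotypes. Its log2 fold change was -0.50 (SE 0.109, adjusted p = 0.00275) in WT and -0.75 (SE 0.115, adjusted p = 3.83e-05) in KO mice in edgeR. Cdc45 had -0.59 (SE 0.188, adjusted p = 0.0297) and -0.68 (adjusted p = 0.0117) in edgeR. Mcm6 was 0.89 to 1.5 TPM in FL_WT against 0.74 to 1.04 TPM in GC_WT mice and 1.46 to 1.62 TPM in FL_KO against 0.6 to 1.1 TPM in GC_KO mice. The WT groups overlapped and the KO groups were apart, and the averaged log2 fold change was 0.31 (SE 0.107, adjusted p = 0.0214, edgeR). Skeletal muscle markers were called higher for 6 and 7 of 8, with sums of 6574, 3164 and 8011 TPM in flight mice FL06, FL08 and FL11 against at most 68.2 TPM in ground mice, and the median gene's TPM was shifted by 0.31 in WT and 0.43 in KO mice. Without these 3 mice Rrm1 stayed called at -0.51 in WT and -0.82 in KO mice, and Cdc45 at -0.62 in KO mice, while Cdc45 in WT mice (-0.58) and Cdt1 (-0.80), Ccne1 (-0.49) and Mcm6 (0.28) averaged lost their calls. Mki67 averaged lost its call without any of FL_KO mice 01, 02, 09 and 12.

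In Cbr, 36 genes were tested and 0 were called in any flight contrast, beside 0.0244% of all genes in WT mice, 0.0061% in KO mice and 0.0488% averaged, called in either direction. At an unadjusted p under 0.05, 1 was lower in WT mice, 0 were found in KO mice and 2 were lower averaged, beside 3.35%, 5.52% and 7.01% of all genes in either direction, and DESeq2 called 0. The median was -0.08 in WT and -0.05 in KO mice.

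**Figure D5:**
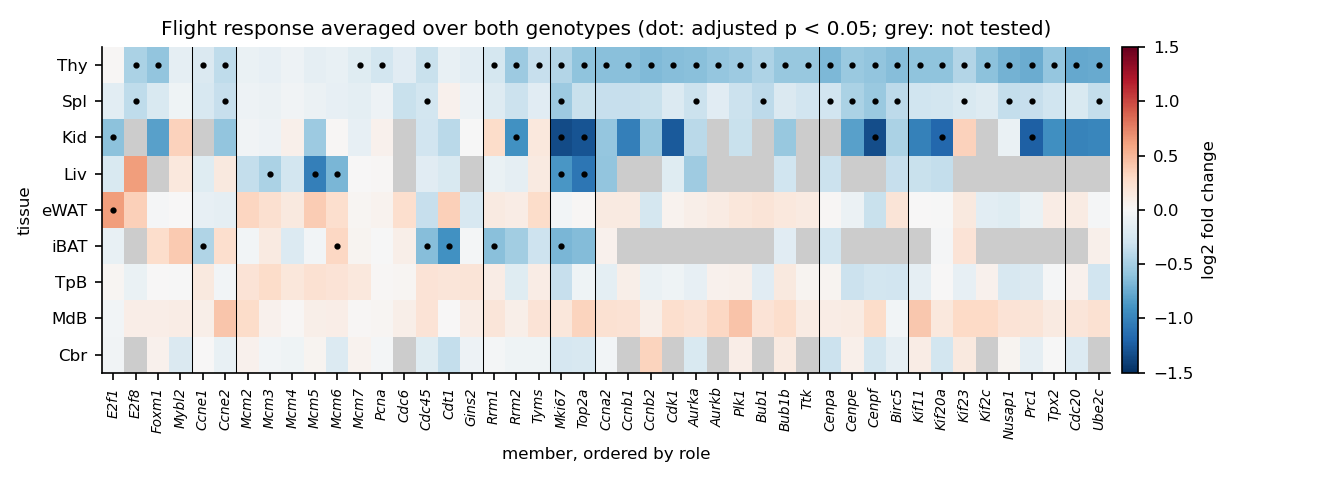
Averaged flight log2 fold change of each of the 45 genes (columns) in 9 tissues (rows), with a dot where the gene was called and grey where it was not tested. Dots fill the mitotic columns in the row of Thy (35 genes called in all) and are sparser in Spl (14), Kid (7), Liv (5), iBAT (6) and eWAT (1).

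Between Nrf2-KO and WT mice, none of the 45 genes was called in any of the 9 tissues, on the ground or in flight, in edgeR or in DESeq2. In Liv in flight, 1 was called without FL_KO mouse 02. Over all genes, GC_KO against GC_WT called 3.81% in Thy, 1.13% in Spl, 1.61% in Kid, 0.198% in TpB, 0.244% in MdB, 2.64% in Liv, 2.74% in eWAT, 2.14% in iBAT and 0.836% in Cbr, in either direction. In the same order, FL_KO against FL_WT called 2.64%, 1.16%, 1.83%, 0.203%, 0.208%, 3.65%, 1.06%, 1.5% and 0.531%. At an unadjusted p under 0.05, GC_KO and GC_WT differed for 2, 20, 2, 0, 1, 1, 0, 4 and 2 of the genes tested in these tissues, beside 18.8%, 10.8%, 10.9%, 2.9%, 5.07%, 13.4%, 15.5%, 12.7% and 9.27% of all genes. FL_KO and FL_WT differed for 10, 1, 4, 0, 0, 3, 8, 2 and 0 of them, beside 19.8%, 11%, 13.2%, 2.3%, 5.4%, 17.3%, 10.7%, 11.7% and 5.16%. The ground contrast shares GC_WT and GC_KO with the contrasts of flight, and the flight contrast shares FL_WT and FL_KO with them. Estimates lay mostly on 1 side of 0 in several tissues. In TpB on the ground, 45 of 45 were below 0 (median -0.31). Between FL_KO and FL_WT, 43 of 45 in TpB (median -0.19) and 42 of 45 in eWAT (median -0.38) were below 0. In Spl on the ground, 45 of 45 estimates were above 0 (median 0.25) and 20 genes were higher at an unadjusted p under 0.05, beside 5.95% of all genes. Cdk1 there ranged from 14.9 to 20.2 TPM in GC_WT (median 15.9) and from 18.6 to 29.9 TPM in GC_KO mice (median 21.9). These overlapped, and the log2 fold change was 0.45 (SE 0.142, adjusted p = 0.168, edgeR). E2f8 had 0.44 (adjusted p = 0.213, edgeR) and Cdc6 0.52 (adjusted p = 0.224, edgeR) in the same contrast. GC_KO mouse 09, with the highest sum of the 45 genes in Spl (1456 TPM), is one of these mice.

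In Thy on the ground, E2f1 had the smallest adjusted p between genotypes. It ranged from 4.32 to 5 TPM in GC_WT mice with a median of 4.64 TPM, and from 4.94 to 6.8 TPM in FL_WT mice with a median of 6.29 TPM. Its mean was 5.39 TPM in GC_KO and 5.84 TPM in FL_KO mice. The log2 fold change was 0.32 between GC_KO and GC_WT (SE 0.0999, adjusted p = 0.0721, edgeR). At an unadjusted p under 0.05, 2 of the 45 were higher on the ground, and 10 were lower in flight KO against flight WT mice (median -0.13), beside 10.5% of all genes, where Plk1 had -0.26 (adjusted p = 0.133, edgeR) and Cdc20 -0.28 (adjusted p = 0.144, edgeR).

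The difference of the flight response between genotypes was called for none of the 45 genes in any tissue by edgeR or DESeq2, and the background was 0% of all genes in each of the 9 tissues. In Thy the median difference, KO minus WT, was -0.09 with 44 of 45 estimates below 0, and 1 gene, E2f1 (-0.32, adjusted p = 0.561, edgeR), was lower at an unadjusted p under 0.05. In Spl the median was -0.14 with 43 of 45 estimates below 0, and 0 genes were found at that unadjusted p. In eWAT it was -0.31 with 43 of 45 estimates below 0, and 2 genes were lower at that p. In Kid the median was -0.01 with 1 gene higher and 2 lower, and in Liv 1 gene was higher and 1 lower. In TpB the median was 0.11 with 34 of 45 estimates above 0. At that unadjusted p, 1, 0, 3, 0, 0, 2, 2, 0 and 1 of the genes tested were found in Thy, Spl, Kid, TpB, MdB, Liv, eWAT, iBAT and Cbr, beside 8.23%, 3.98%, 3.38%, 1.77%, 5.05%, 4.03%, 8.43%, 8.3% and 2.34% of all genes. A p that misses the threshold does not show that the genotypes responded alike.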

How the data were processed

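The 192 RNA-seq samples were single reads of strand-specific libraries sequenced on a HiSeq2500, depleted of ribosomal RNA in Thy and poly(A)-selected elsewhere. Reads were mapped to mm10 with STAR 2.6.1 and quantified with RSEM 1.3.1, per the methods and the submitters' processing notes. The authors deposited expected counts, which RSEM estimates for each gene without normalization and in which a read that fits several genes is shared among them. TPM was deposited by the authors too, straight from RSEM, and 192 columns of FPKM stayed unused. The strand setting is not given in the sources used here.

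The rounded expected counts of each tissue were fitted with edgeR 4.0.16 under R 4.3.3, using filterByExpr by group, TMM factors and quasi-likelihood tests on the 4 groups together, with Benjamini-Hochberg adjustment over every gene tested. The study itself used DESeq2. The results were recomputed with DESeq2 1.42.0, with limma 3.58.1 on log2(TPM + 1) or log2(TPM + 0.1) where some group had a mean TPM of 5 or more, with RLE factors, without the filter, with FL04, and with only the groups compared. Further fits had a block for mouse number or, in TpB, for library set, or dropped single mice of groups of up to 5. The edgeR fit of FL_WT against GC_WT was tested on simulated data in Thy, Spl and Kid.

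The members and lists were chosen with earlier results of these data known. Full statistics are given for at most 6 called members per tissue and contrast with the smallest adjusted p, for up to 3 where none was called, and for Mki67, Top2a, Cdk1, Ccnb1, Pcna and Mcm5 in any tissue. Genes of other lists were named among the 3 called with the smallest adjusted p, except where stated.

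A flight and a ground mouse with 1 number are 2 animals. Their samples were checked for a shared deviation from the group mean by its correlation over genes. In Liv, all 5 KO pairs exceeded 0.1 (0.20 to 0.34), as did 3 of 6 WT pairs (0.01 to 0.30), and the block left the member calls there within 1.5 times the counts given. Depth was 8.01 to 16.3 M counts per library, and the filter left 37 of the 45 genes in Kid, 36 in Cbr and 27 in both Liv and iBAT.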

Additional observations from a re-analysis of the deposited data

Results flagged for a closer look

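In 19 of 224 groups of 4 to 10 mice, the highest or lowest mouse stood apart from the rest by Dixon's criterion, where chance alone gives about 1 in 20 groups. In eWAT, FL_WT mouse 03 accounted for 6 of these. Its summed level of the 45 genes was 387 TPM (143 to 203 TPM in the other FL_WT mice), with Mki67 at 7.3 TPM (0.97 to 2.95), Top2a at 8.27 TPM (1.2 to 2.65), Cdk1 at 6.9 TPM (1.54 to 3.36), Pcna at 73.6 TPM (40.7 to 49.2) and Mcm5 at 18.1 TPM (3.88 to 7.94). In Spl, GC_KO mouse 09 accounted for 4, with a sum of 1456 TPM (1104 to 1227 TPM in the others), Top2a at 54 TPM (40.7 to 45.4), Pcna at 143 TPM (116 to 125) and Mcm5 at 73.6 TPM (58 to 62.5).

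In TpB, Mki67 was 130 TPM in FL_KO mouse 09 (21.6 to 51.7 TPM in the others). In Thy, Top2a was 151 TPM in GC_WT mouse 10 (187 to 208) and 114 TPM in FL_KO mouse 02 (128 to 130), both lower than the rest. In Liv, the summed level was 85.1 TPM in GC_WT mouse 08 (59.6 to 65.4). In eWAT, the ratio of mitotic to licensing and fork sums was 0.52 in FL_KO mouse 12 (0.307 to 0.359). In iBAT, Mki67 was 0.14 TPM in FL_WT mouse 07 (0.07 to 0.09), and the summed level was 49.1 TPM in GC_KO mouse 12 (38 to 41.4). In Cbr, Ccnb1 was 1.12 TPM in GC_KO mouse 12 (0.16 to 0.48) and Pcna 47.2 TPM in FL_KO mouse 02 (42.8 to 43.9).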

How the results depend on the processing

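Counts below take both directions together. Of 780 recomputed counts of called members, 712 stayed within 1.5 times the count given, 41 were lower and 27 higher. Most of the 54 counts recomputed were 0 to begin with, and those that stayed at 0 are among the 712. That share therefore says little about how steady the counts above 0 were, which are given by tissue below. Of 246 recomputed medians, 26 moved by more than the tolerance. Of 3234 recomputed values of single genes, 3069 kept their direction and side of the threshold, 104 lost and 35 gained a call and 26 changed sign. Causes were not tested. The median was at least 1 TPM for 18 of the 45 genes in Kid, 16 in Liv and 7 in iBAT. Added after seeing the data were fits without GC_KO mouse 04 in Thy, FL_WT mouse 03 in eWAT, GC_WT mouse 08 in Liv, GC_KO mouse 09 or mice GC04 and GC05 in Spl, and mice FL06, FL08 and FL11 in iBAT.

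With limma on log2(TPM + 1) and on log2(TPM + 0.1), FL_KO against GC_KO in Thy called 22 and 22 of the members, and the Thy medians were -0.30 in WT, -0.31 in KO and -0.30 averaged. Spl called 2 and 2 in KO mice and 22 and 22 averaged. Kid called 0 and 0 in WT mice and averaged, with medians of 0.08 in WT, 0.02 in KO, -0.01 between ground genotypes and 0.03 averaged. Liv called 1 and 1 in WT mice and averaged, with medians of 0.09, 0.13 and 0.11 in WT, KO and averaged. iBAT called 1 and 1 in WT mice and 3 and 3 averaged, with medians of 0.22 in WT, 0.40 in KO, -0.14 and 0.03 between genotypes on the ground and in flight, 0.31 averaged and 0.17 for the difference of responses. The limma medians in Kid, Liv and iBAT rest on the few genes with a mean of 5 TPM or more in some group. In iBAT only Pcna (15.6 TPM) and Rrm1 (6.16 TPM) had a median over mice above 5 TPM. These medians therefore do not cover the same genes as those of edgeR. Cbr had medians of 0.01 in WT mice and -0.04 and -0.05 between genotypes. In Thy, limma gave Mcm5 0.12 and 0.12 in WT and 0.08 and 0.08 in KO mice, Mcm2 0.17 and 0.17, and 0.11 and 0.11, Mcm7 0.10 and 0.10, and 0.02 and 0.02, and E2f1 0.10 and 0.11 in KO mice. In MdB it gave Mcm7 0.03 and 0.03 in WT mice, and in TpB Ccnb2 0.00 and -0.01 for the difference of responses.

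DESeq2 called 3 in KO Spl, 2 in WT and 2 in KO Kid, 4 in WT (3 lower, 1 higher) and 1 in KO Liv, and 4 in WT eWAT and 2 averaged (1 higher, 1 lower). No filter gave 9 in Spl averaged, 2 in WT and 3 in KO Kid, and 1 in WT and 3 averaged in iBAT. Inclusion of FL04 gave 2 in KO and 22 averaged in Spl, 1 in KO Liv, 2 averaged in eWAT, and 4 in KO iBAT, with medians of -0.12 in WT and -0.10 averaged there. RLE factors gave 2 in WT eWAT, and the groups of the contrast alone 1 in WT Liv.

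With the mouse number as a block, Spl called 6 averaged, Kid 0 in WT mice and 0 averaged with medians of -0.46, -0.54 and, for the difference of responses, 0.04, eWAT 2 averaged, and iBAT 1 in KO mice with medians of -0.09 averaged and 0.00 for the difference. Thy called 30, 34 and 36. In MdB the block turned Mcm7 to 0.09 in WT mice and -0.01 for the difference. Only in KO Liv did all pairs of mice with the same number exceed a correlation of 0.1. There the block left the counts of called members within 1.5 times those given.

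Leaving out 1 mouse gave 33 to 38 in KO Thy, 3 to 24 averaged in Spl (7 without GC04 and GC05), 0 to 1 in WT, 0 to 2 in KO and 3 to 8 averaged in Kid, 0 to 1 between flight genotypes and 4 to 5 averaged in Liv, and 1 to 3 in WT, 0 to 1 in KO and 1 to 2 averaged in eWAT. Over the same mice in TpB, Cdc45 ran from -0.19 (without FL_KO mouse 09) to 0.49 and Bub1b from -0.21 to 0.46 in KO mice, and for the difference Ccnb2 from -0.08 to 0.62 and Bub1b from -0.22 to 0.45, each lowest without that mouse. In MdB, between flight genotypes, Cenpf ran from -0.75 to 0.09 and E2f8 from -0.93 to 0.09, each highest without FL_WT mouse 06.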

Other observations

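Mouse FL04, which was left out of the comparisons, had a summed level of the 45 genes of 2037 TPM in Thy (1582 to 1765 TPM in the other FL_KO mice), with a mitotic to licensing and fork ratio of 1.66 (1.5 to 1.67). In Spl its sum was 824 TPM (832 to 1139) and its ratio 0.754 (0.692 to 1.03), and in TpB they were 723 TPM (540 to 2348) and 1.34 (1.1 to 1.69). In MdB its sum was 305 TPM (317 to 336) and its ratio 0.976 (0.887 to 0.973). In eWAT it had 219 TPM (138 to 199) and 0.426 (0.307 to 0.52), in Liv 56.3 TPM (56.6 to 72.4) and 0.223 (0.219 to 0.285), in iBAT 39.9 TPM (42.9 to 54) and 0.183 (0.143 to 0.215), and in Cbr 144 TPM (131 to 140) and 0.297 (0.249 to 0.298).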
